A study of Mus musculus with 12 samples.

Results

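Knock-down of the DNA methyltransferase gene Dnmt3a was compared with a scrambled hairpin in cultured adipocytes, and the change of every expressed gene is described. The comparison rested on 6 of the 12 RNA-seq libraries of the study, 3 with a hairpin against Dnmt3a (shDnmt3a) and 3 with the scrambled hairpin (shScr). The cells were 3T3-L1, a mouse embryonic fibroblast line that stores fat once it has been differentiated with dexamethasone, IBMX and insulin. All cells of both groups had been differentiated in this way and then carried a lentivirus with a hairpin, so that the controls shared the virus and the hairpin cassette. Transduction was on day 8 of differentiation, and RNA was taken 4 days later. The other 6 libraries, 3 of cells with GFP and 3 of cells overexpressing Dnmt3a from a pCDH vector, did not enter this comparison. The sources used here call the libraries biological triplicates but do not say that they came from separate cultures, so that p-values speak to the scatter among these libraries alone, which could be technical. In RNA from whole cultures, fewer cells of a type and less RNA per cell cannot be told apart.

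Dnmt3a is an enzyme that places new methyl groups on cytosines, mostly in CpG pairs, and its relative Dnmt1 copies existing methylation after each round of replication. Methylation of a promoter rich in CpG pairs goes with silencing of the gene, as at imprinted genes and at genes kept for the germ line, whereas methylation within gene bodies is common in active genes. In fat cells, which divide little once mature, enzymes of this family have been studied for their part in insulin resistance. The study made this comparison to see which transcripts follow the loss of Dnmt3a.

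The study describes 2 hairpins against Dnmt3a, but the sources used here do not give the hairpin that the libraries carried. Their target sequences are shown because they fix which part of the transcript could be cut. On mm9 (NCBI build 37) both matched the plus strand of chromosome 12 inside Dnmt3a, which spans chr12:3806007-3914443 and has 23 exons in the transcript used here. Hairpin #1 lay in the coding part of exon 23, at chr12:3907714-3907734, and hairpin #2 in coding exon 15, at chr12:3900011-3900031.
Hairpin #1: cgctccgctgaaggaatattt
Hairpin #2: ccagatgttctttgccaataa

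The targeted gene was lower in the knock-down. Levels are given as CPM, counts per 1000000 counts of a library after TMM scaling over the 6 libraries, in the order of replicates 1, 2 and 3. Dnmt3a was at 82.1, 87.7 and 79.5 CPM in shScr and at 41.4, 39.9 and 40.1 CPM in shDnmt3a. No shDnmt3a library reached the lowest shScr library. The log2 fold change was -1.04 with a standard error of 0.046 (edgeR adjusted p = 7.71e-13, which as for every edgeR adjusted p given here is that of the quasi-likelihood test after Benjamini-Hochberg adjustment over all genes tested).

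Total counts were 30406492 to 37403514 in shScr and 35013931 to 40973267 in shDnmt3a. TMM factors lay between 0.9946 and 1.0062, and the first principal component held 67.3% of the variance against 9.74% for the second. No batch is named in the labels. Adipocyte markers stood at a summed 19920 to 20350 CPM in shScr and 19200 to 19670 CPM in shDnmt3a. Of 14 macrophage and leukocyte markers 9 were tested and summed to 33.18 to 35.39 CPM in shScr and 38.03 to 38.91 CPM in shDnmt3a, while Emr1 and Tyrobp had 0 reads in the 6 libraries and Ptprc 32 reads in all. Of 8 endothelial markers 5 were tested, with sums of 2.004 to 2.811 CPM in shScr and 2.912 to 2.982 CPM in shDnmt3a. The labelled cell type therefore had its defining transcripts in every library. Lars2, a mitochondrial leucyl-tRNA synthetase, was uneven among the shScr libraries, at 333, 52.2 and 110.4 CPM in shScr and 277, 377 and 387 CPM in shDnmt3a. Its groups overlapped, and its difference (log2 fold change 1.07, edgeR adjusted p = 0.02) lost its call without shScr replicate 2 (0.64), without shScr replicate 3 (0.85), without shDnmt3a replicate 2, with DESeq2 and in the fit of 12 libraries.

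Similar numbers of genes rose and fell, but the large changes were mostly rises. Of 14115 genes tested, 3294 (23.3%) were higher and 3173 (22.5%) were lower at an adjusted p under 0.05, together 45.8%. Genes that also passed a log2 size of 1 are called strongly changed below, and of these 395 genes (2.80%) were higher and 123 (0.871%) were lower. At a log2 size of 2 or more the counts were 89 and 5, and at 3 or more they were 32 and 0. The median over all genes tested was 0 after rounding to 3 decimals, the middle 50% of genes lay between -0.18 and 0.19, and the 5th and 95th percentiles were -0.52 and 0.72. The 3 libraries of each group did not overlap for 7464 genes (52.9%). Because the libraries of a group were so alike, with a common biological coefficient of variation of 4.03%, many calls were of small size. Only 862 of the higher and 435 of the lower genes changed by at least 1.5-fold.

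**Figure D1:**
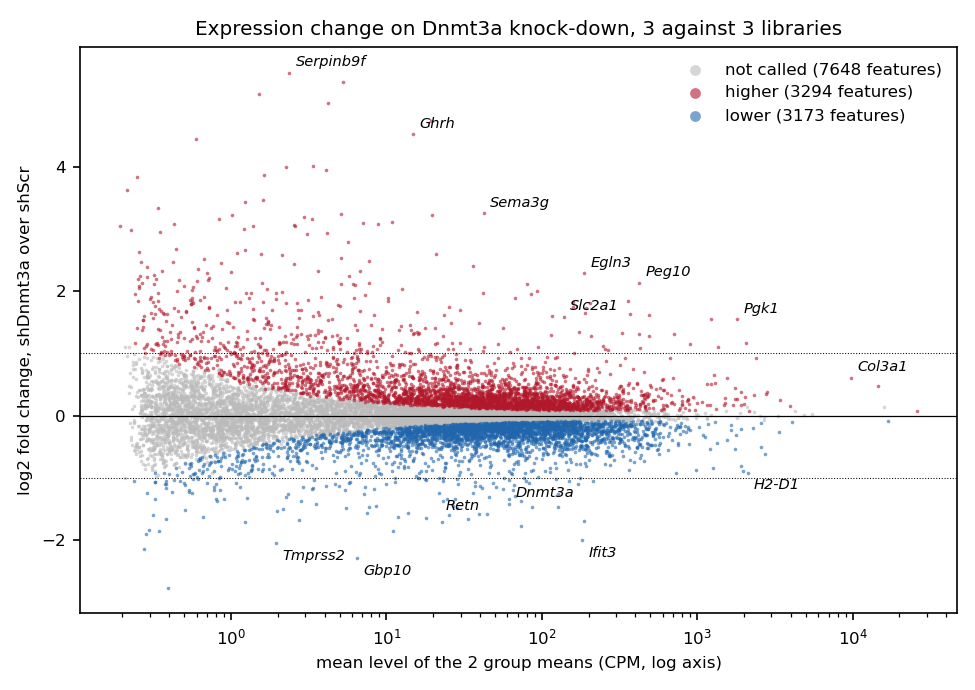
Log2 fold change of shDnmt3a over shScr (vertical axis) against the mean of the 2 group means in CPM (log axis) for each of 14115 features, grey where not called, red where higher (3294) and blue where lower (3173), with dotted lines at a log2 of 1 and -1. The points above a log2 of 2 lie mostly at low levels, and Pgk1 and Peg10 are among those above 1 at high levels.

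How often a gene was strongly changed depended on its level and on its direction. Below a mean of 1 CPM, 6.93% of genes were strongly higher and 1.81% strongly lower. Between 30 and 100 CPM the shares were 0.434% and 0.678%. Among the 77 genes at 1000 CPM or more, 4 genes, or 5.19%, were strongly higher and none was strongly lower by the edgeR test, although 24 of these genes were called lower and 35 higher. The summed CPM of the higher genes went from 295030 in shScr to 371600 in shDnmt3a, and that of the lower genes from 373470 to 302370.

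Where the mean was 20 counts or more, the steepest rises began from almost no reads. Serpinb9f encodes an intracellular serine protease inhibitor of the granzyme-inhibiting serpin family, and it had 3, 4 and 3 reads in shScr and 165, 183 and 167 in shDnmt3a, or 0.087, 0.107 and 0.0984 CPM against 4.64, 4.48 and 4.79 CPM. P2rx7, an ion channel opened by extracellular ATP, was at 0.348, 0.214 and 0.164 CPM in shScr and at 10.4, 9.74 and 10.5 CPM in shDnmt3a. For both genes every shDnmt3a library lay far above every shScr library. Their log2 fold changes were 5.52 (SE 0.24, edgeR adjusted p = 4.84e-13) and 5.36 (SE 0.18, edgeR adjusted p = 7.45e-15).

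Other genes among the 15 highest encode signalling and secreted proteins. Ghrh, growth hormone-releasing hormone, a peptide best known from the hypothalamus, was at 0.985, 1.34 and 1.38 CPM in shScr and at 27.0, 30.9 and 27.4 CPM in shDnmt3a (log2 fold change 4.53, SE 0.11). Rgs4, which speeds the inactivation of G proteins, was at 0.435, 0.508 and 0.197 CPM in shScr and at 6.33, 6.58 and 6.13 CPM in shDnmt3a (4.01, SE 0.19). Both sets of libraries were fully separated, which was a condition for the 15 highest. Acer2, a ceramidase of the Golgi, and Cdhr1, a cadherin-related protein known from photoreceptors, rose by log2 fold changes of 4.00 and 3.96. Neither Rgs4 nor Acer2 would have passed the filter on low counts by its shScr libraries. Sema3g, a secreted semaphorin that guides vessels and axons, was already present in shScr at 7.48, 8.17 and 8.43 CPM and reached 77.8, 76.0 and 77.2 CPM in shDnmt3a (3.26, SE 0.057, edgeR adjusted p = 1.62e-18).

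Among genes with a mean of 20 counts or more, the deepest falls were smaller and were led by genes of the interferon response. Gbp10, a guanylate-binding protein of antimicrobial defence, was at 11.2, 11.4 and 9.71 CPM in shScr and at 2.14, 2.37 and 2.06 CPM in shDnmt3a (log2 fold change -2.29, SE 0.11, edgeR adjusted p = 2.68e-12). Tmprss2, a membrane serine protease, was at 3.42, 2.99 and 3.05 CPM in shScr and at 0.591, 0.685 and 1.00 CPM in shDnmt3a (-2.06, SE 0.19, edgeR adjusted p = 4.04e-08). Ifit3, which acts with its relatives against viral RNA, was at 292, 283 and 297 CPM in shScr and at 67.0, 72.5 and 78.1 CPM in shDnmt3a (-2.0, SE 0.046). Their groups did not overlap, which was a condition for the 15 lowest. Also among the 15 lowest were Cmpk2, a mitochondrial nucleotide kinase induced by interferon, at -1.65, and Hhatl, a relative of the enzyme that adds palmitate to Hedgehog, at -1.71.

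**Figure D2:**
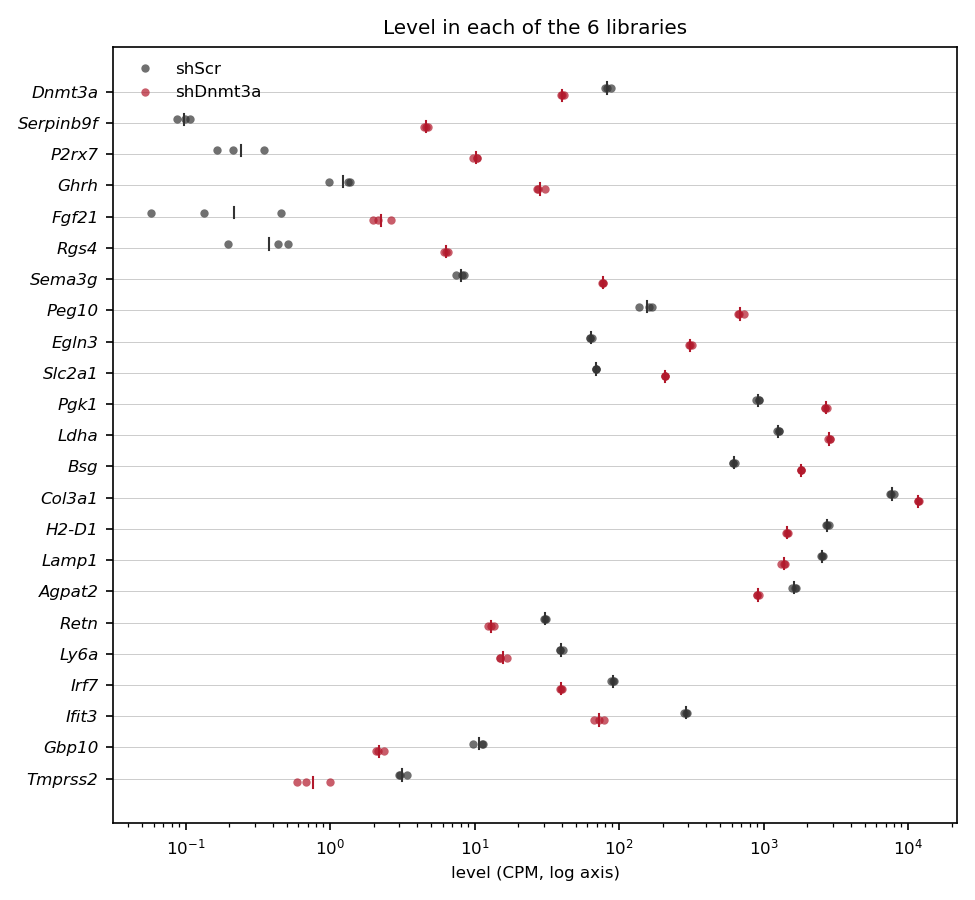
Level in CPM (log axis) of 23 named genes in each of the 3 shScr (grey) and 3 shDnmt3a (red) libraries, with a vertical tick at each group mean. The points of a group lie close together and the groups are separate for all genes drawn, from Serpinb9f near 0.1 CPM in shScr to Col3a1 at 11671 to 11837 CPM in shDnmt3a.

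In absolute terms the largest rises in mean CPM included genes of the extracellular matrix and of glucose use. Col3a1, a fibrillar collagen chain, was at 7490, 7585 and 8004 CPM in shScr and at 11671, 11759 and 11837 CPM in shDnmt3a (log2 fold change 0.61). Pgk1, which makes ATP in glycolysis, went from 926, 879.6 and 937 CPM to 2654, 2683 and 2742 CPM (1.56, SE 0.033). Bsg, the chaperone that brings lactate transporters to the cell surface, went from 619, 610.0 and 635 CPM to 1804, 1826 and 1816 CPM (1.55, SE 0.031). The shDnmt3a libraries were above the shScr libraries for each. Among the largest falls were H2-D1, an MHC class I chain, at 2766, 2699 and 2826 CPM in shScr and 1437, 1464 and 1480 CPM in shDnmt3a (-0.92), and Lamp1, a glycoprotein of the lysosomal membrane, at 2583, 2529 and 2512 CPM against 1328, 1407 and 1389 CPM (-0.89). Gpd1, which supplies the glycerol backbone of triglycerides, fell from 3236, 3301 and 3343 CPM to 2104, 2184 and 2117 CPM (-0.63).

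Gene lists were drawn up for 62 pathways, complexes and cell types, chosen with earlier results of these data known, and each is described by the number of its tested members that were called and by its median log2 fold change, to be read beside 23.3% higher, 22.5% lower and a median of 0 for all genes. The lists with the highest medians were clade B serpins, targets of the hypoxia-inducible factor HIF, and glycolysis. Interferon effectors, MHC class I genes and lists of mitochondrial oxidation, the respiratory complexes and the TCA cycle, had the lowest.

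**Figure D3:**
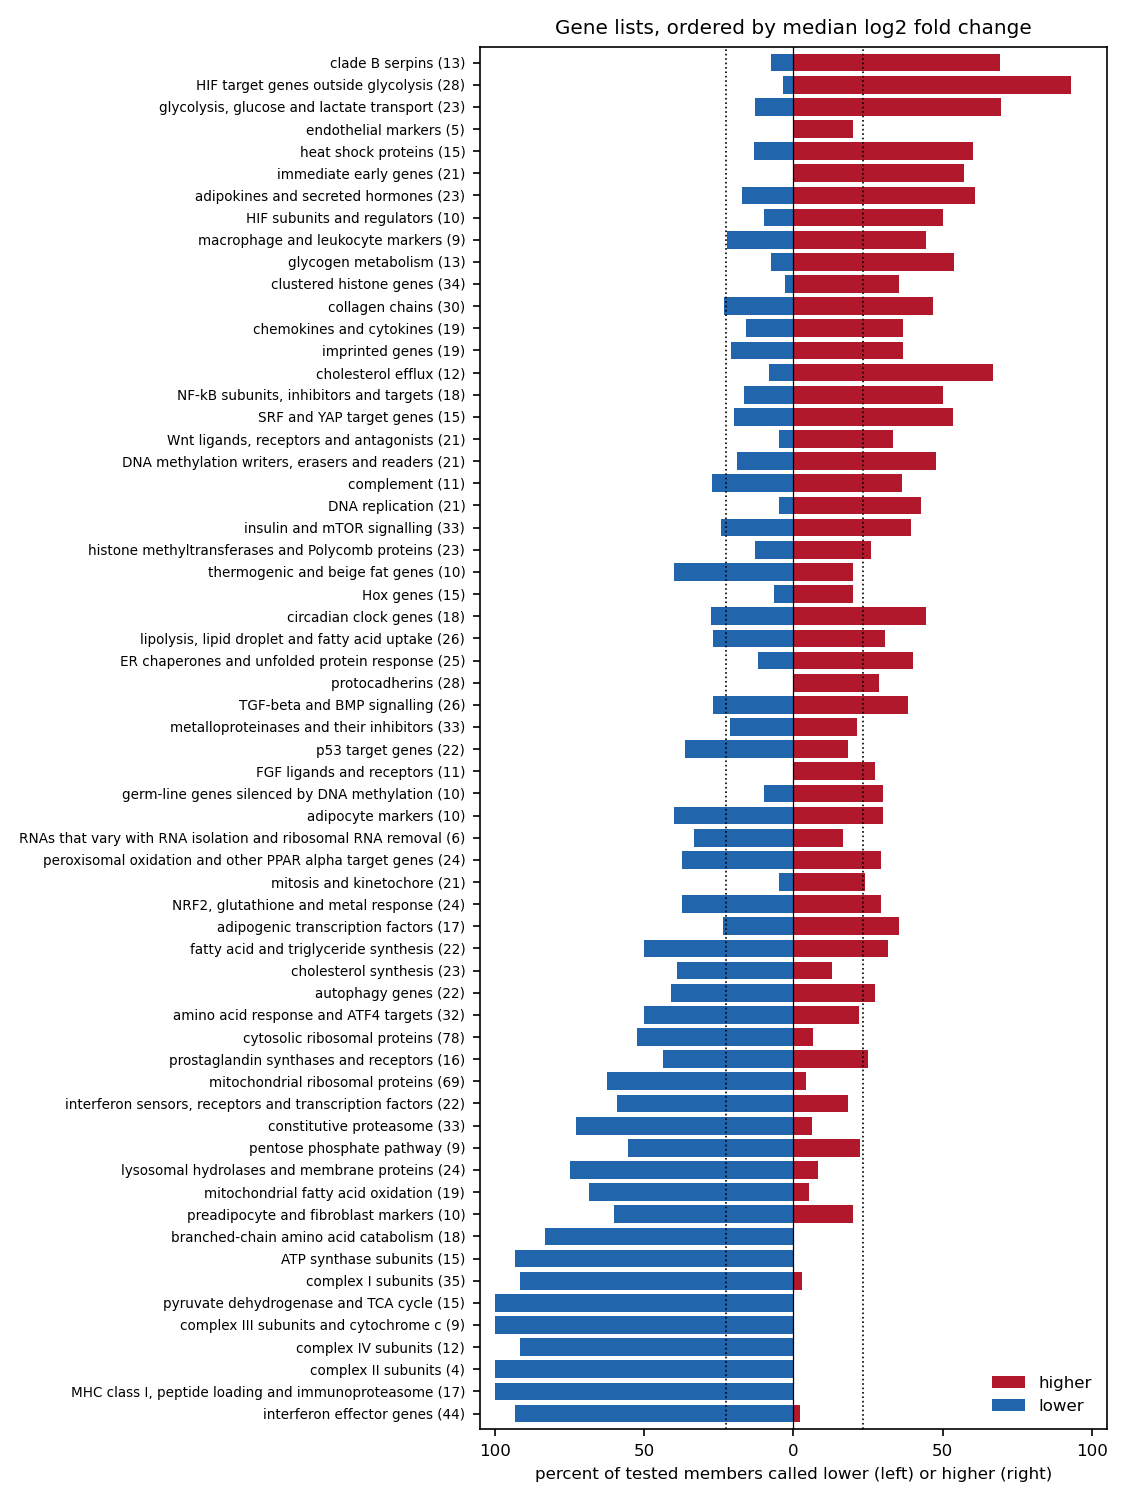
Percent of the tested members of each of 62 gene lists that were called lower (blue, to the left) or higher (red, to the right), with the number tested in parentheses and the lists ordered by median log2 fold change; dotted lines mark the shares over all genes tested (22.5% lower and 23.3% higher). All 15 tested TCA cycle genes and all 17 MHC class I genes were called lower, and 26 of 28 HIF targets were called higher.

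Transcripts of glucose entry and glycolysis were higher along most of the pathway. Of 23 tested members 16 were higher and 3 lower, with a median of 0.42, and the summed level went from 10230 to 10360 CPM in shScr to 18110 to 18670 CPM in shDnmt3a. Slc2a1, the glucose transporter GLUT1 that acts without insulin, was at 68.9, 69.7 and 69.3 CPM in shScr and at 209, 209 and 209 CPM in shDnmt3a (1.59, SE 0.035, edgeR adjusted p = 1.55e-17). The enzymes rose at successive steps, Hk2 (hexokinase) by 0.76, Gpi1 (glucose phosphate isomerase) by 0.60, Pfkl (phosphofructokinase) by 0.92, Aldoa (aldolase) by 0.39, Pgam1 (phosphoglycerate mutase) by 1.10 and Pkm2 (pyruvate kinase) by 0.92 on the log2 scale. Gapdh was at 1.60, but this symbol was split over 3 features and has many processed copies in the genome, so its value is uncertain.

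At the end of the pathway transcripts of the lactate and pyruvate branches moved apart. Ldha, the lactate dehydrogenase subunit that favours lactate, was at 1278, 1236 and 1269 CPM in shScr and at 2794, 2867 and 2872 CPM in shDnmt3a (1.17, SE 0.03). Ldhb, the subunit that favours pyruvate, was at 392, 392 and 394 CPM in shScr and at 262, 263 and 267 CPM in shDnmt3a (-0.57, SE 0.032). Pdk1, the kinase that switches off pyruvate dehydrogenase, was at 246, 235 and 242 CPM in shScr and at 581, 608 and 616 CPM in shDnmt3a (1.32, SE 0.035). The 2 groups were separate in all of these. The lactate transporter Slc16a1 fell by 0.17 and the regulatory enzyme Pfkfb2 by 0.27 on the log2 scale, and Slc2a3, Pfkm, Eno3 and Pfkfb3 were not called. Eno3 was the only enolase gene among the tested members, so its value does not describe the enolase step as a whole.

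Genes of glycogen metabolism were also more often higher than lower. Of 13 members tested 7 were higher and 1 lower (median 0.22, or 0.37 with the filter of 1 CPM in 3 libraries), and their sum went from 1808 to 1868 CPM in shScr to 2626 to 2704 CPM in shDnmt3a. Ppp1r3c, which targets protein phosphatase to glycogen and activates its synthesis, was at 74.8, 71.5 and 72.0 CPM in shScr and at 237, 247 and 253 CPM in shDnmt3a (1.75, SE 0.039). Gys1, glycogen synthase, rose by 1.05 and Gbe1, the branching enzyme, by 1.12. Pygb, a phosphorylase that breaks glycogen down, was the member that fell (-0.35) and is named for that, outside the naming rule. In the pentose phosphate pathway 5 of 9 members were lower, Tkt (transketolase) at -0.35 and Shpk (sedoheptulokinase) at -0.51 among them, and 2 were higher.

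**Figure D4:**
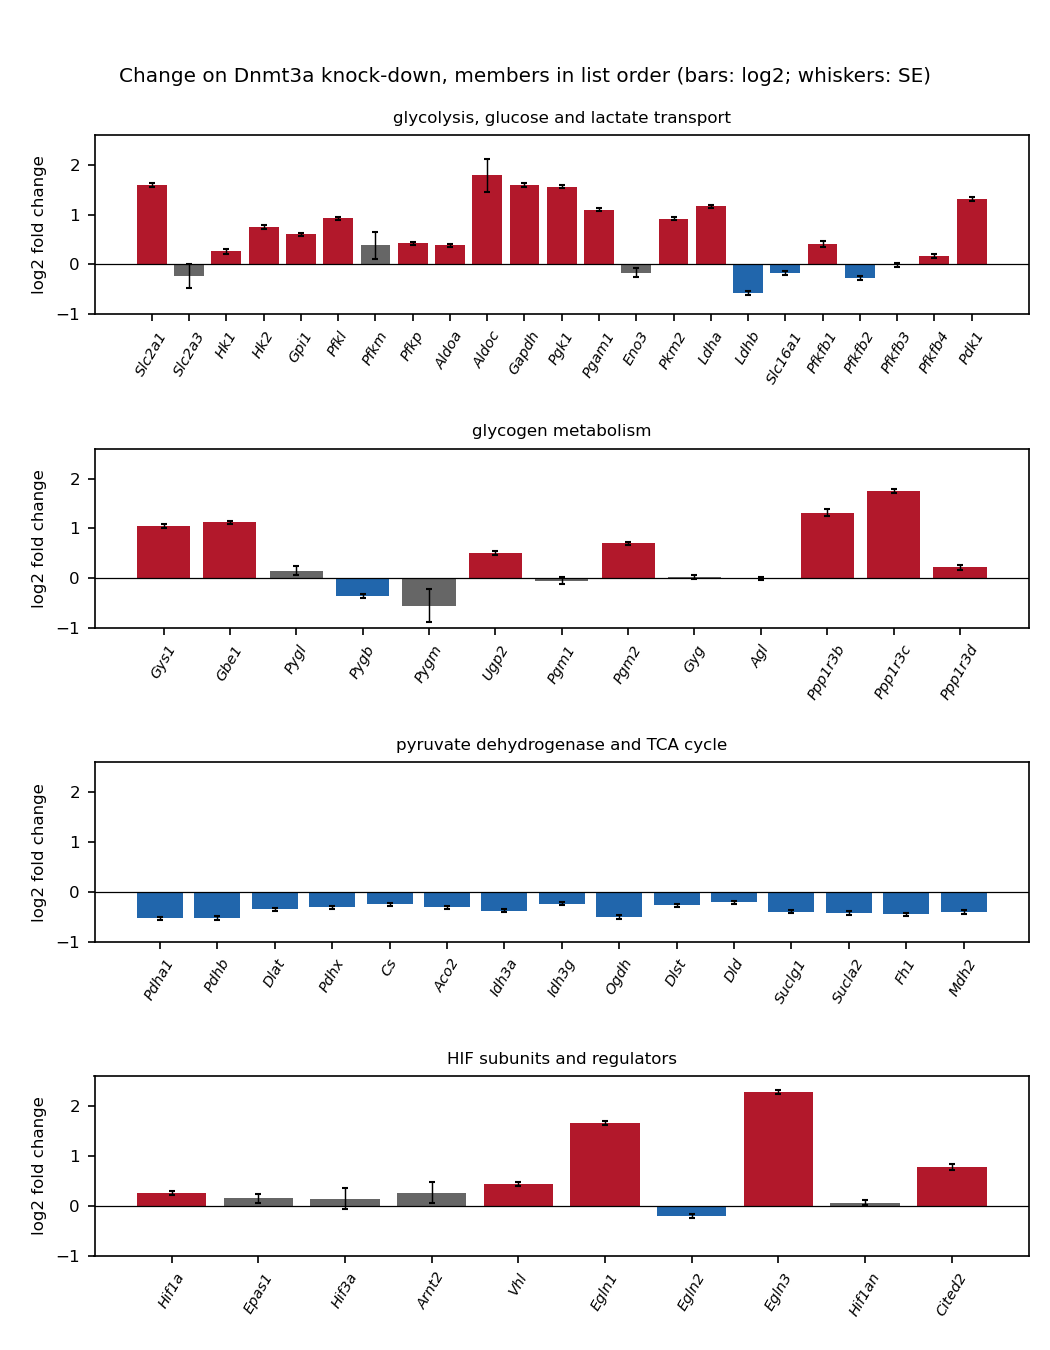
Log2 fold change of shDnmt3a over shScr for each tested member of 4 gene lists (bars, with whiskers for the standard error), red where called higher, blue where called lower and grey where not called. Every TCA cycle bar is below 0, between -0.53 and -0.21, while Pgk1, Slc2a1 and Pdk1 in glycolysis and Egln1 and Egln3 among the HIF regulators exceed 1.

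Transcripts of mitochondrial oxidation were lower, by small and even steps. All 15 tested genes of pyruvate dehydrogenase and the TCA cycle were lower (median -0.37, from -0.53 to -0.21), and their sum was 6670 to 6683 CPM in shScr and 5221 to 5230 CPM in shDnmt3a. Pdha1, the catalytic subunit of pyruvate dehydrogenase, was at 586, 553 and 551 CPM in shScr and at 386, 385 and 399.8 CPM in shDnmt3a (-0.53). Across the 4 respiratory complexes and the ATP synthase, 70 of 75 tested subunit genes were lower and 1 was higher. The lower members were 32 of 35 in complex I, 4 of 4 in complex II, 9 of 9 in complex III with cytochrome c, 11 of 12 in complex IV and 14 of 15 in the ATP synthase, with medians of -0.35, -0.44, -0.38, -0.39 and -0.31. Sdhb, the iron-sulfur subunit of complex II, was at 278, 266 and 284 CPM in shScr and at 176, 177 and 182 CPM in shDnmt3a (-0.63, SE 0.036). Cox6c, a small subunit of cytochrome oxidase, was at 149.9, 146 and 165 CPM in shScr and at 85.4, 94.3 and 90.7 CPM in shDnmt3a (-0.77, SE 0.047). The groups of all these genes were separate, and no member of these lists was strongly changed.

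Genes for the use of mitochondrial fuels other than glucose mostly followed the same direction. In branched-chain amino acid catabolism 15 of 18 members were lower and none was higher by the edgeR test (median -0.29), and Bcat2, the transaminase of the first step, was at 231, 244 and 247 CPM in shScr and at 169, 164 and 157 CPM in shDnmt3a (-0.56). In mitochondrial fatty acid oxidation 13 of 19 were lower and 1 was higher (median -0.24). The lower members included the dehydrogenases Acadl (-0.57) and Acads (-0.41), and the higher one was Cpt1b, the muscle form of the carnitine transferase, at 5.33, 5.05 and 4.56 CPM in shScr and 9.54, 10.1 and 10.7 CPM in shDnmt3a (1.01). Peroxisomal oxidation and other PPAR alpha target genes were divided, with 7 of 24 higher and 9 lower, and Ehhadh, a peroxisomal enzyme, rose from 0.348, 0.267 and 0.262 CPM to 2.34, 2.42 and 2.64 CPM (3.06, SE 0.23). Ehhadh passed the filter on low counts through shDnmt3a alone. Mitochondrial ribosomal proteins were lower for 43 of 69 members (median -0.18). Ppargc1a, a coactivator that drives mitochondrial genes, was at 129, 137 and 126 CPM in shScr and at 86.5, 85.9 and 83.5 CPM in shDnmt3a (-0.61, SE 0.039).

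Targets of HIF, the transcription factor that is stable when oxygen is short, were higher. Outside glycolysis 26 of 28 tested targets were higher and 1 was lower, 17 of them strongly, with a median of 1.09 and sums of 4029 to 4074 CPM in shScr and 7573 to 7647 CPM in shDnmt3a. Egln3, an oxygen-sensing prolyl hydroxylase that marks HIF for degradation and is itself a HIF target, was at 62.8, 63.2 and 65.0 CPM in shScr and at 320.4, 305 and 308 CPM in shDnmt3a (2.29, SE 0.038, edgeR adjusted p = 1.12e-18). Bnip3, which directs mitochondria to autophagy, was at 583, 542 and 547 CPM in shScr and at 1220, 1223 and 1284 CPM in shDnmt3a (1.16, SE 0.036). Lox, which cross-links collagen, went from 177, 184 and 178 CPM to 570.1, 553 and 558 CPM (1.64). These groups were far apart. Ak4, a mitochondrial adenylate kinase, rose by 2.01 and P4ha2, a collagen prolyl hydroxylase, by 1.83 on the log2 scale.

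The subunits of HIF themselves moved little. Hif1a was at 306, 295 and 281 CPM in shScr and at 348, 351 and 352 CPM in shDnmt3a (0.25, SE 0.036, edgeR adjusted p = 9.27e-06), and Epas1, Hif3a and Arnt2 were not called. Egln1, the main prolyl hydroxylase, was at 85.1, 94.8 and 94.9 CPM in shScr and at 298, 293 and 277 CPM in shDnmt3a (1.66, SE 0.045), whereas Egln2 fell by 0.21. Vhl, which binds hydroxylated HIF for destruction, rose by 0.44, and Cited2, which competes for the HIF coactivator, by 0.77. Car9 and Mir210 were picked after their values were seen, as further known HIF targets. Car9, a carbonic anhydrase of the cell surface, was at 4.26, 2.91 and 4.26 CPM in shScr and at 34.8, 36.0 and 35.6 CPM in shDnmt3a (3.23, edgeR adjusted p = 1.13e-15). The feature of Mir210, a hairpin-length stretch of 110 bases, had 2, 6 and 2 reads in shScr and 16, 13 and 17 in shDnmt3a (2.05, edgeR adjusted p = 0.00135). These reads do not measure the mature miRNA.

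Promoter sequences of HIF targets were searched for ACGTG, the core letters of the element that HIF binds, on both strands. In the window from 250 bases before to 50 bases after the start site, 24.3% of 12626 promoters held it, compared with 16 of 28 HIF targets (57.1%) and 11 of 23 genes of glycolysis (47.8%), while among strongly higher genes the share was 24.4%. The promoters of Car9, Egln3, Slc2a1 and Ak4 held no match in the 200 bases before the start. The 200 bases before the start are shown for 3 genes that rose and hold it, and for Fgf21, described further below, in the direction of transcription, on NCBI build 37 (mm9), with the matches in capitals. The palindrome CACGTG counts as a match on each strand, so the 2 matches of Fgf21 are the same site. Binding of HIF to any of these promoters was not tested.
Pgk1, chrX:103382239-103382438 (plus strand): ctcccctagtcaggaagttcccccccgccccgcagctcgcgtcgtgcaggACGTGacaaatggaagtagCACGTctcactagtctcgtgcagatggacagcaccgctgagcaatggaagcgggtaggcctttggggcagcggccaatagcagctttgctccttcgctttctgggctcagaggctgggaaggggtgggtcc
Ldha, chr7:54101009-54101208 (plus strand): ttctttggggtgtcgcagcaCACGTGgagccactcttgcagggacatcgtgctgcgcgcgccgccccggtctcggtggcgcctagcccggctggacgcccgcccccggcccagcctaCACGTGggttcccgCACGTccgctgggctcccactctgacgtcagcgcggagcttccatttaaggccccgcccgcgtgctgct
Bnip3, chr7:146101190-146101389 (minus strand): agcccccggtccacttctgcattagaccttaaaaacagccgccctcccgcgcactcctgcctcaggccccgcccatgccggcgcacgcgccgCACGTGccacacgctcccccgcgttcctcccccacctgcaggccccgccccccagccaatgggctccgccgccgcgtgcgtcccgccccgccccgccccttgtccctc
Fgf21, chr7:52870861-52871060 (minus strand): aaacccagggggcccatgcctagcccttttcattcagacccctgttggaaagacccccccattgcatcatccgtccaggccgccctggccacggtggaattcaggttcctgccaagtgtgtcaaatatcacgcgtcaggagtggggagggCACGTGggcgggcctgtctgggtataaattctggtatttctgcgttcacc

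Interferon effectors were the group with the lowest median. Of 44 tested members 41 were lower and 1 was higher (median -0.95), 20 of them strongly lower, and the summed level fell from 5114 to 5283 CPM in shScr to 2727 to 2794 CPM in shDnmt3a. Ifit1, which binds foreign RNA ends, was at 298, 277 and 276 CPM in shScr and at 84.0, 85.4 and 93.0 CPM in shDnmt3a (-1.70, SE 0.044). Oas1a, which makes the messenger that activates RNase L, went from 34.2, 35.9 and 34.6 CPM to 9.51, 11.6 and 10.7 CPM (-1.71, SE 0.069). The libraries of the groups did not overlap for either gene. The member that rose was Isg20, an exonuclease, which lies outside the naming rule and was at 4.26, 4.27 and 4.82 CPM in shScr and at 9.59, 8.59 and 8.91 CPM in shDnmt3a (1.02, edgeR adjusted p = 5.29e-08).

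Sensors and regulators of the pathway fell less evenly, with 13 of 22 lower and 4 higher (median -0.22). Irf7, the factor that amplifies interferon transcription, was at 88.4, 90.9 and 92.9 CPM in shScr and at 40.2, 38.8 and 39.5 CPM in shDnmt3a (-1.20, SE 0.042). Usp18, which removes ISG15 and restrains the receptor, was at 106, 104 and 109 CPM in shScr and at 40.9, 40.7 and 41.9 CPM in shDnmt3a (-1.37, SE 0.041). Ddx58 (RIG-I), a sensor of viral RNA, fell by 0.71 and Dhx58 by 1.01. Transcripts of antigen presentation moved with them. All 17 tested genes of MHC class I, peptide loading and the immunoproteasome were lower (median -0.87), from 6210 to 6409 CPM in sum to 3679 to 3777 CPM, with H2-K1 at -0.92 and the peptide transporter Tap1 at -1.01. In the constitutive proteasome, which all cells use, 24 of 33 subunit genes were lower at smaller sizes (median -0.22), and Psmb5, whose place in the ring the immunoproteasome can take, fell by 0.52.

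The letters GAAA, any 2 bases and GAAA again, the core of the element bound by interferon regulatory factors, were searched in the same window on both strands. They stood in 3.45% of all promoters, in 21 of 44 promoters of interferon effectors (47.7%), in 4 of 16 of the MHC class I list (25%) and in 28 of 103 promoters of strongly lower genes (27.2%). The strongly lower genes include 20 interferon effectors and 5 genes of the MHC class I list, so these shares are not separate observations. The shares were 2.65% of strongly higher genes and 4.8% of all lower genes. The 200 bases before the start are shown for 3 genes that fell, with the matches in capitals.
Ifit3, chr19:34657821-34658020 (plus strand): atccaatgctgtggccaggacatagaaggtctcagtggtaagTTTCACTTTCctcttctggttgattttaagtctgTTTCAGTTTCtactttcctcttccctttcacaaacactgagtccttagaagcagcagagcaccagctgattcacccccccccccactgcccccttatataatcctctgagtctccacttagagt
Ifit1, chr19:34715161-34715360 (plus strand): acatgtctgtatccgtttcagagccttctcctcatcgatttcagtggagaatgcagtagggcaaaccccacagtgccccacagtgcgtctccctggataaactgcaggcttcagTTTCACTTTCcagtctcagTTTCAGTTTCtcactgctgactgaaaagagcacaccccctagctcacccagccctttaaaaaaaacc
Usp18, chr6:121195724-121195923 (plus strand): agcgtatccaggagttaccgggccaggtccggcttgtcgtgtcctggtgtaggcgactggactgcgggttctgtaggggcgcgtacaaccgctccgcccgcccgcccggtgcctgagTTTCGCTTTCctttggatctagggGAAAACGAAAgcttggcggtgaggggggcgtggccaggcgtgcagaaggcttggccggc

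Strongly changed genes formed runs at 11 places, counted where at least 3 of them had starts within 100000 bases of the next. Other tested genes could lie between them, as in the run from Cfb to Hspa1a, where 3 of 7 tested genes were strongly changed. How many runs 443 strongly changed genes would form by their spacing alone was not tested. Several were gene families of the interferon response, Ifit3 and Ifit1 on chromosome 19, Gbp9, Gbp4 and Gbp10 and, at a second place, Oas1h, Oas1g and Oas1a on chromosome 5, and H2-T23, H2-T10 and H2-T9 on chromosome 17. On chromosome 16, Tmprss2 lay beside Mx1 (-1.57) and Mx2 (-1.43). Higher runs were Serpinb9c, Serpinb9e and Serpinb9f on chromosome 13, the histone genes Hist1h2ae, Hist1h2bg and Hist1h3d on the same chromosome, and the keratins Krt36 (1.05), Krt13 (2.33), Krt9 (1.16) and Krt14 (1.52) on chromosome 11. The call of Krt9 was lost with DESeq2 and without shScr replicate 2 or 3 or shDnmt3a replicate 1 or 3. Genes of a run could also move apart, as Mir210 (2.05) and Irf7 (-1.20) did on chromosome 7 and Hspa1b (1.38) and Cfb (-1.03) on chromosome 17. The genes of these runs outside the naming rule were picked by their position and change. Members of these families are close in sequence, so reads of near-identical copies could have been assigned to the wrong one.

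Clade B serpins had the highest median of all lists, at 1.23, with 9 of 13 tested members higher, 8 of them strongly, and 1 lower. Beside Serpinb9f, its neighbours rose, Serpinb9c from 1.04, 0.828 and 1.05 CPM in shScr to 9.31, 8.64 and 9.57 CPM in shDnmt3a (3.24, SE 0.13) and Serpinb9e from 0.261, 0.187 and 0.164 CPM to 2.45, 3.38 and 3.30 CPM (3.87, SE 0.26). Serpinb9g stood at 2, 4 and 2 reads in shScr and at 103 to 119 reads in shDnmt3a (5.18, SE 0.31). Serpinb9e and Serpinb9g had at most 9 reads in any shScr library, and the assignment of reads among such close paralogs is uncertain. Of 26 listed serpins 13 were not tested. A filter of 1 CPM in any 3 of the 6 libraries gave a list median of 2.29. Serpinb9e, Serpinb9f and Serpinb9g passed this filter, and the default one, through shDnmt3a alone. Both medians therefore rest in part on members that were kept because they are high in shDnmt3a.

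Of 21 tested enzymes and readers of DNA methylation 10 were higher and 4 lower (median 0.16). Dnmt1, the maintenance enzyme, was at 38.5, 40.5 and 37.6 CPM in shScr and at 45.0, 44.1 and 48.7 CPM in shDnmt3a (0.24, edgeR adjusted p = 0.000789). Dnmt3b, the second de novo enzyme, was at 1.62, 1.87 and 1.70 CPM in shScr and at 1.91, 1.93 and 1.72 CPM in shDnmt3a, and its groups overlapped (0.10, SE 0.16, edgeR adjusted p = 0.663). Uhrf1, which brings Dnmt1 to newly copied DNA, fell by 0.54, and Tet1, which oxidises methylcytosine, rose by 0.74 at 1.94, 2.35 and 1.54 CPM in shScr and 3.12, 2.47 and 4.33 CPM in shDnmt3a. Gadd45a, a stress protein linked to demethylation and repair, was at 84.4, 86.5 and 94.1 CPM in shScr and at 52.2, 50.6 and 51.3 CPM in shDnmt3a (-0.78, SE 0.045).

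Among imprinted, germ-line, protocadherin and Hox genes, classes known for their dependence on DNA methylation or Polycomb proteins, Peg10 had the largest change. Of imprinted genes, expressed from the copy of either the mother or the father alone, 7 of 19 were higher and 4 lower (median 0.19). Peg10, a retrotransposon-derived gene expressed from the paternal copy, was at 138, 169 and 161 CPM in shScr and at 731, 673 and 660.5 CPM in shDnmt3a (2.14, SE 0.057, edgeR adjusted p = 2.61e-16). The growth factor Igf2 rose by 0.88, Peg3 by 0.76 and Ndn by 0.47. Of 32 germ-line genes that methylation silences in other cells, 10 had enough reads to be tested, 3 were higher and 1 lower (median 0.01), and with DESeq2 or without shScr replicate 3 the higher count was 1. Sycp3, of the meiotic chromosome axis, was at 23, 21.5 and 20.3 CPM in shScr and at 10, 11.1 and 11.3 CPM in shDnmt3a (-1.0), and Tex19.1, a guard against retrotransposons, at 32.3, 33.0 and 36.3 CPM against 50.4, 54.0 and 55.0 CPM (0.65). The groups of both were separate, and the directions were opposite. Of 28 protocadherins 8 were higher and none was lower by the edgeR test (median 0.04; 1 or 2 were lower in 5 of the alternatives), with Pcdh17 at 0.96 and Pcdh9 at 0.81, and of 15 Hox genes 3 were higher and 1 was lower.

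Strong changes were more frequent at promoters with few CpG pairs. Promoter sequence was found for 12626 of 13882 symbols tested (91.0%), and CpG pairs were counted in the same window of 300 bases. The strongly higher share was 6.49% at promoters with fewer than 5 CpG pairs, 5.52% from 5 to 9, 2.33% from 10 to 19, 1.47% from 20 to 29 and 0.948% at 30 or more. The strongly lower share fell in the same order, 3.24%, 1.51%, 0.619%, 0.17% and 0.114%. Levels differed too, with a median of 3.03 CPM in the first class and 41.9 CPM in the last. Within genes under 3 CPM the strongly higher share was 8.23% below 10 CpG pairs, 7.12% from 10 to 19 and 4.38% at 20 or more, and within genes of 30 CPM or more it was 1.78%, 0.825% and 0.483%. The strongly lower share in genes of 30 CPM or more was 3.16%, 0.508% and 0.0568% in the same order. Serpinb9f had 3 and P2rx7 7 CpG pairs in the window, Pgk1 24 and Ldha 31. The letters TGANTCA, with any base at N, include the sites bound by AP-1 factors but also other sequences, so the matches are not counts of AP-1 sites. Such letters were found in 5.14% of all promoters, in 41 of 340 promoters of strongly higher genes (12.1%) and in 10 of 103 of strongly lower genes (9.71%). They stood in 12 of 44 promoters of interferon effectors (27.3%) and in 0 of 21 of immediate early genes. The shares of these letters and of those searched above were not compared at matched CpG content, so the part of base composition was not tested. Methylation was not measured in these libraries.

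By position and length the calls were spread over the genome with some imbalance. Chromosomes were compared over genes with promoter sequence, of which 24.4% were higher and 23.8% lower. On chromosome 13, 28.7% of these genes were higher and 18% lower, on chromosome 18 31.2% and 19.7%, and on chromosome X 27.4% and 18.6%. Chromosome 17 had 18.8% higher and 27.6% lower. Genes with features shorter than 1000 bases had a higher share of 11.8% and a lower share of 27.0%, and those of 5000 bases or more had 27.9% and 21.6%. Cytosolic ribosomal protein genes, which are short, were lower for 41 of 78 members and higher for 5 (median -0.12). The part of transcript length in these shares was not tested.

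Transcripts of most hormones secreted by fat cells changed. Of 23 adipokines and other hormones 14 were higher and 4 lower (median 0.29). Retn, resistin, an adipokine that opposes insulin in mice, was at 30.5, 30.1 and 31.4 CPM in shScr and at 12.9, 12.3 and 13.6 CPM in shDnmt3a (-1.25, SE 0.062, edgeR adjusted p = 3.85e-12). Apln, apelin, a peptide that acts on vessels and on glucose uptake, was at 35.3, 35.2 and 33.6 CPM in shScr and at 135, 137 and 133 CPM in shDnmt3a (1.96, SE 0.041). Fgf21, a fasting-related hormone that improves insulin action, had 2, 5 and 14 reads in shScr and 76, 108 and 69 in shDnmt3a, or 0.058, 0.134 and 0.459 CPM against 2.14, 2.64 and 1.98 CPM (3.44, SE 0.34, edgeR adjusted p = 1.08e-07). No library of shScr reached the lowest of shDnmt3a for Apln and Fgf21, although shScr replicate 3 stood above the other two for Fgf21. Adipoq, adiponectin, was at 2147, 1951 and 2081 CPM in shScr and at 1703, 1762 and 1845 CPM in shDnmt3a (-0.22), and the complement factor Cfd fell by 0.26.

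Markers of the mature fat cell changed in both directions and by little apart from Retn, 3 of 10 higher and 4 lower (median -0.01). Slc2a4, the insulin-responsive transporter GLUT4, was picked as the counterpart of Slc2a1 after its values were seen, and was at 244, 248 and 247 CPM in shScr and 237, 237 and 242 CPM in shDnmt3a (-0.04, SE 0.033, edgeR adjusted p = 0.30). Of 17 adipogenic transcription factors 6 were higher and 4 lower, with the early factor Klf4 at 1.07 and Cebpa at -0.26. In insulin and mTOR signalling 13 of 33 were higher and 8 lower (median 0.12). Rhoq, a small GTPase of the insulin-driven traffic of GLUT4, was at 340.3, 316 and 326 CPM in shScr and at 211, 205 and 217 CPM in shDnmt3a (-0.64, SE 0.037), and Socs3, an inhibitor of cytokine and insulin receptors, at 7.22, 8.07 and 7.34 CPM against 13.5, 14.7 and 12.5 CPM (0.85, SE 0.086). The groups of both genes did not overlap.

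Lipid synthesis was divided among its steps. Of 22 tested genes of fatty acid and triglyceride synthesis 7 were higher and 11 lower (median -0.07). Elovl6, which lengthens palmitate, was at 75.5, 70.3 and 65.0 CPM in shScr and at 29.8, 32.5 and 32.3 CPM in shDnmt3a (-1.16, SE 0.056). Agpat2, which adds the second fatty acid to the glycerol backbone and is needed for fat storage, was at 1655, 1581 and 1668 CPM in shScr and at 894, 897 and 934 CPM in shDnmt3a (-0.85, SE 0.033). Acacb, the mitochondrial acetyl-CoA carboxylase, was at 182, 201 and 192 CPM in shScr and at 111, 102 and 100.2 CPM in shDnmt3a (-0.88, SE 0.044). All 3 were lower in every shDnmt3a library than in any shScr library. Scd1, a desaturase with very many reads, was at 25371, 26329 and 24380 CPM in shScr and at 26876, 26802 and 26364 CPM in shDnmt3a, a difference of 0.07 whose call (edgeR adjusted p = 0.039) was lost with DESeq2, in the fit of 12 libraries, with the replicate block and without shScr replicates 1 or 3 or shDnmt3a replicates 1 or 2. For lipolysis and droplet genes 8 of 26 were higher, Mgll (monoglyceride lipase, 0.62) and G0s2 (an inhibitor of the lipase ATGL, 0.46) among them, and 7 were lower.

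Cholesterol genes moved the other way between synthesis and export. In synthesis 9 of 23 genes were lower and 3 higher (median -0.07). Cyp51, which removes a methyl group from lanosterol, fell by 0.40, and Sc5d, a sterol desaturase of a later step, by 0.50 on the log2 scale. In efflux 8 of 12 genes were higher and 1 lower (median 0.18). Abcg1, which passes cholesterol to HDL, was at 81.7, 84.7 and 84.5 CPM in shScr and at 141, 144 and 137 CPM in shDnmt3a (0.75, SE 0.037), and the HDL receptor Scarb1 rose by 0.60. The member that fell was Npc2 (-0.61), a lysosomal carrier, and lysosomal hydrolases and membrane proteins were lower for 18 of 24 members (median -0.23), with Hexa, which degrades gangliosides, at -0.63 and the protease Ctsd at -0.44. In the thermogenic list 4 of 10 genes were lower, Dio2, which activates thyroid hormone, at -1.32 and Cox8b at -0.59. The 2 higher members were Kcnk3, a potassium channel, at 0.24 and Tnfrsf9, a receptor of the TNF family with few reads, at 1.86 (edgeR adjusted p = 0.000372), the latter named after its values were seen. The median of the list was 0.08, or -0.36 with a filter of 1 CPM in 3 libraries.

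Matrix and surface genes of the fibroblast lineage changed in both directions. Of 30 collagen chains 14 were higher and 7 lower (median 0.20). Col12a1, a collagen that decorates fibrils, was at 2.14, 2.62 and 2.23 CPM in shScr and at 13.5, 12.7 and 13.1 CPM in shDnmt3a (2.48, SE 0.10), and Ctgf, a matricellular growth factor, at 1.25, 1.31 and 1.74 CPM against 11, 9.10 and 9.49 CPM (2.79, SE 0.14). Each shDnmt3a library lay several-fold above each shScr library. Of 10 preadipocyte and fibroblast markers 2 were higher and 6 lower (median -0.26), although their sum rose from 8569 to 9120 CPM to 12700 to 12800 CPM through Col3a1. Ly6a (Sca-1), a surface protein of progenitors, was at 39.3, 40.8 and 39.2 CPM in shScr and at 15.1, 16.7 and 15.1 CPM in shDnmt3a (-1.35, SE 0.059). Among metalloproteinases and their inhibitors 7 of 33 were higher and 7 lower, and Mmp14, which works at the cell surface, fell from 514, 539.6 and 530.4 CPM to 348, 343 and 325 CPM (-0.64).

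Stress and growth responses showed no common direction. Heat shock proteins were higher for 9 of 15 members (median 0.35, Hspa1b at 1.38) and lower for 2, and immediate early genes for 12 of 21 with none lower by the edgeR test (median 0.33), Ier3 at 1.31 among them. Of the amino acid response 16 of 32 genes were lower and 7 higher, with Phgdh, the first enzyme of serine synthesis, at -0.71. Metallothionein Mt2, which binds zinc and copper, was at 1.62, 1.44 and 1.97 CPM in shScr and at 4.73, 5.31 and 5.04 CPM in shDnmt3a (1.60). Ptgs2, the inducible cyclooxygenase, was at 3.68, 3.15 and 2.69 CPM in shScr and at 9.79, 9.89 and 11.1 CPM in shDnmt3a (1.68, SE 0.11). The groups of these genes were separate. Among clock genes Per1 rose by 0.89 and Arntl by 0.72 within a list of 8 higher and 5 lower of 18. In DNA replication 9 of 21 genes were higher and 1 was lower (median 0.14), in mitosis 5 of 21 and 1 (median -0.04), and among clustered histone genes 12 of 34 and 1 (median 0.22).

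A few leukocyte markers changed at low levels. Cd53, a tetraspanin of leukocytes, was at 3.16, 2.48 and 3.34 CPM in shScr and at 11.9, 11.2 and 11.3 CPM in shDnmt3a (1.94, SE 0.11). Trem2, a receptor of macrophages, rose by 1.81 from a mean near 1 CPM. Mpeg1, a pore-forming protein of phagocytes, was at 17.8, 18 and 18.3 CPM in shScr and at 5.99, 5.73 and 5.65 CPM in shDnmt3a (-1.64, SE 0.076). Their groups did not overlap and their directions differed, and over the list 4 of 9 tested markers were higher and 2 lower (median 0.24, or 0.99 with the filter of 1 CPM in 3 libraries).

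The GFP libraries give a second reference, without a hairpin and with another vector, so that hairpin and vector cannot be told apart in it. In 1 fit of all 12 libraries, the differences of shScr and of shDnmt3a from GFP were set beside each other. These comparisons share the GFP libraries, and each shares its hairpin libraries with the knock-down comparison, so the values are a description only. For interferon effectors the median was 1.04 in shScr minus GFP and 0.11 in shDnmt3a minus GFP, and for MHC class I genes 0.71 and 0.03. Ifit3 had a mean of 77.2 CPM in GFP and Irf7 of 38.8 CPM. The respiratory lists stood at 0.34 to 0.44 in shScr minus GFP and at -0.03 to 0.03 in shDnmt3a minus GFP, and the TCA cycle list at 0.38 and -0.03. In the same order, mitochondrial fatty acid oxidation stood at 0.35 and 0.08 and branched-chain amino acid catabolism at 0.26 and 0.03. Lysosomal genes stood at 0.25 and 0.05 and mitochondrial ribosomal proteins at 0.21 and 0. In these lists shScr was the group farther from GFP.

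Other lists lay on both sides of GFP. The median of HIF targets was -0.47 in shScr minus GFP and 0.44 in shDnmt3a minus GFP, that of clade B serpins -0.76 and 0.35, and that of glycolysis -0.20 and 0.38. Egln3 had a mean of 216 CPM in GFP and Slc2a1 of 166 CPM, between the hairpin groups. Glycogen genes were at -0.03 and 0.38. Fgf21, at 0.154 CPM in GFP, and P2rx7, at 0.427 CPM, were low in GFP as in shScr, while Dnmt3a stood at 93.3 CPM. Other genes with steep rises lay between the hairpin groups in GFP, Sema3g at 46.2 CPM, Ghrh at 8.65 CPM and Peg10 at 373 CPM. For Peg10 the log2 difference from GFP was -1.27 in shScr and 0.86 in shDnmt3a. Mitosis genes were below GFP by -0.95 in shScr and -0.94 in shDnmt3a.

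**Figure D5:**
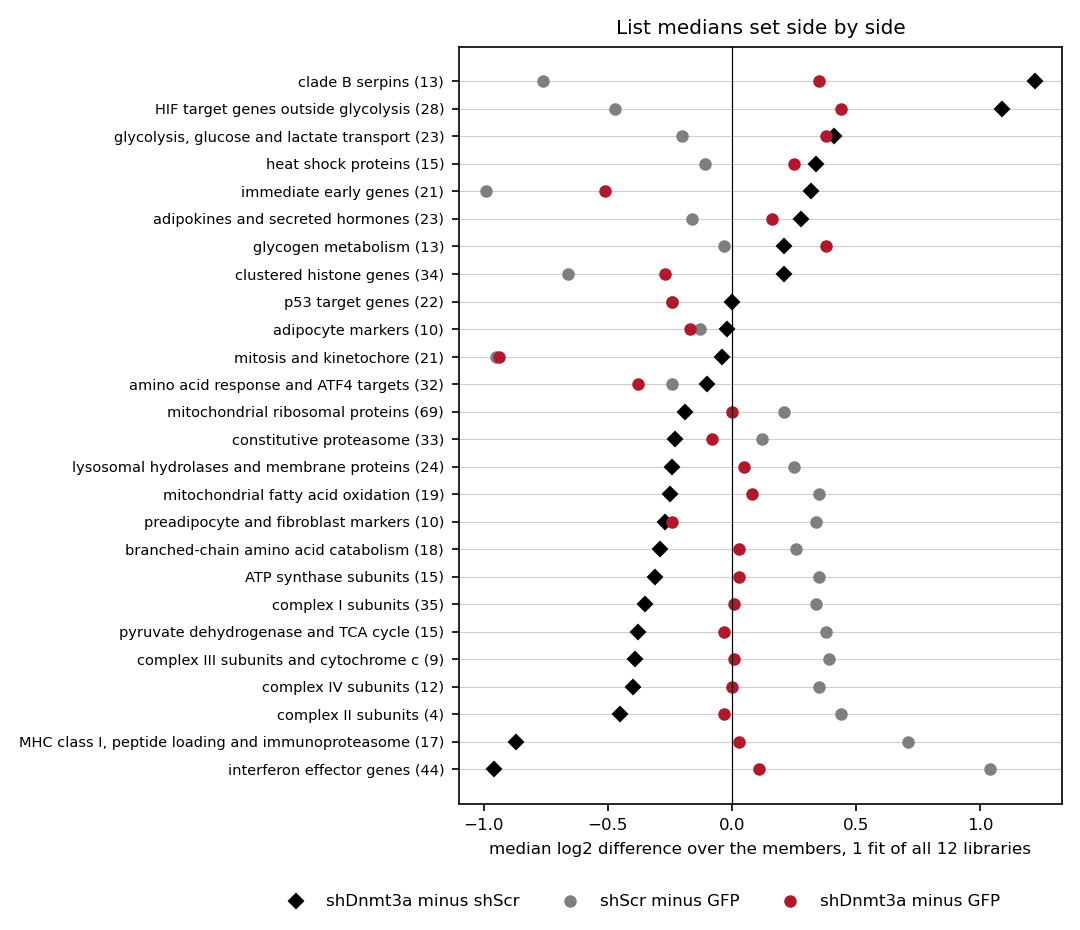
Median log2 difference over the members of 26 gene lists in 1 fit of all 12 libraries, for shDnmt3a minus shScr (black diamonds), shScr minus GFP (grey) and shDnmt3a minus GFP (red), with the number of members in parentheses. For interferon, MHC class I and respiratory lists the red points lie near 0 and the grey points above it, and for HIF targets and clade B serpins they lie on opposite sides of 0.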

How the data were processed

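Per the study's methods and the submitters' notes, the authors removed ribosomal RNA (Ribo-Zero), made TruSeq v2 libraries and aligned reads to mm9 (TopHat2 2.0.14, Picard 2.2.4, SAMtools 0.1.19). featureCounts 1.4.6 then assigned reads to transcripts of an annotation altered to reduce overlaps. The deposited table holds raw whole-number counts for 27473 features, of which 7934 had no count in the 6 libraries used. Use of strand in counting was not given in the sources used here, so overlapping and antisense genes cannot be told apart. Where several features shared a symbol (789 symbols), the feature with most counts stood for the gene, and the rest are uncertain.

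CPM and tests were computed over the 6 libraries together with edgeR (4.0.16) in R (4.3.3), by TMM scaling, the default filter (minimum count 10) and the quasi-likelihood test, with Benjamini-Hochberg adjustment and a threshold of 0.05. Standard errors match the F statistic. The procedure was tested on simulated data. Members and gene lists were chosen with earlier results of these data known, and lists are described by counts and medians alone. Genes were named by rule: Dnmt3a and the DNA methylation list, the 15 highest and 15 lowest log2 fold changes (called, mean 20 counts or more, separate groups), the 10 largest rises and falls in mean CPM, the 4 members with the smallest p in each list, and all members of the glycolysis and HIF regulator lists. Others are marked where they appear, and some genes that the rule selects are not reported here. Promoter windows lay around GENCODE vM1 starts on NCBI build 37. Alternatives were RLE scaling, DESeq2 (1.42.0), other filters, a stricter threshold, features summed by symbol, 1 fit of 12 libraries, a replicate block and leaving out each library in turn.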

Additional observations from a re-analysis of the deposited data

How the results depend on the processing

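The 4 counts of called genes and the fold change of Dnmt3a kept their direction and stayed within 1.5 times their value in the 14 alternatives. Higher genes numbered 2568 to 3387 and lower genes 2453 to 3328, with the lowest at an adjusted p under 0.01 and the highest with no filter for higher and in 1 fit of all 12 libraries for lower genes. Strongly higher genes numbered 271 to 516 and strongly lower genes 87 to 154, with the lowest under the filter of 1 CPM in 3 libraries. With DESeq2 the 4 counts were 2955, 2884, 373 and 113. Leaving out a library gave 2855 to 3172 higher, 2721 to 3117 lower, 400 to 437 strongly higher and 125 to 143 strongly lower genes. With a replicate block the counts were 3092, 2931, 395 and 121 and Dnmt3a was at -1.04. The numbers did not pair the libraries, since deviations of same-numbered libraries correlated at -0.062, -0.002 and -0.002, and the block ended the calls of Scd1 and Hoxa4 among the genes named by rule. The share of higher among called genes was 49.4 to 51.3%. Over the named genes 4565 alternative values kept their side of the threshold and 53 lost their call, and of the counts of list members 1665 stayed within 1.5 times and 71 did not. Of 806 list medians under an alternative 91 moved by more than the spread between libraries, 15 of them by over 0.1 and 23 without shScr replicate 1. The filter of 1 CPM drops members with few reads but keeps those that reach it in 1 group alone. With it the median of clade B serpins moved from 1.23 to 2.29, of macrophage markers from 0.24 to 0.99 and of thermogenic genes from 0.08 to -0.36. That of glycogen genes moved from 0.22 to 0.37, of complement from 0.15 to 0.03 and of endothelial markers from 0.41 to 0.14. Leaving out 1 library moved macrophage markers to between 0.10 and 0.46 (lowest without shScr replicate 3) and endothelial markers to between 0.13 (without shScr replicate 3) and 0.74 (without shScr replicate 1). Without shScr replicate 1 the median of HIF subunits and regulators was 0.40, not 0.26, of Wnt genes 0.04, not 0.16, and of p53 targets -0.03, not 0.01, and without shScr replicate 3 that of glycolysis was 0.60, not 0.42. Among genes that were not called, leaving out 1 library turned the sign of Pfkfb3 (-0.06 to 0.02), Hif3a (-0.05 to 0.37) and Pecam1 (-0.12 to 0.46). Depth limits genes under 1 CPM, where the shScr libraries often held few reads. Several of these, Krt13, Hist1h2ae and Mir210 among them, were tested because they are high in shDnmt3a.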
